A study of Mus musculus with 6 samples.

Results

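The adhesion molecules described here are those that let circulating leukocytes stop on the vessel wall: the selectins Sele and Selp, and the immunoglobulin family members Icam1, Icam2 and Vcam1. They were found by their gene descriptions among 44170 target rows (a target is a gene or transcript summarised from a few array probes), which gave 9 rows for the 5 genes reported. Of these rows, 8 lay at the named gene. Of the rows, 3 are described as intercellular adhesion molecule with no number, and 2 of them were assigned to Icam1 by accession and position on chromosome 9. The other maps to chromosome 8, away from the Icam genes named here. Its values are given apart, but it is counted among the 9 rows. For a gene with more than 1 row, its brightest row by the mean of the 6 arrays is called the leading row.

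Liver RNA was taken from wild-type C57 BL/6 male mice, 9 to 10 weeks old, and hybridised to 6 one-colour NimbleGen arrays, 3 per group. One group was given 0.01 µg of LPS (lipopolysaccharide from the outer membrane of Gram-negative bacteria, recognised through Tlr4) and the other the same dose with GalN added at 20 mg (galactosamine, which traps uridine nucleotides in hepatocytes and sensitises mice to LPS). Both groups were sampled after 2.5 h, and replicates came from separate treatments. LPS was common to both groups, and untreated mice or mice given GalN alone were not analysed here, so induction by LPS itself is not measured. In whole liver, fewer cells of a type and less RNA per cell cannot be told apart.

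Leukocytes are captured from flowing blood in steps. Selectins bind sialylated and fucosylated sugars and let the cells roll, and the Icam and Vcam proteins then bind integrins and hold them. Sele is made by endothelial cells after inflammatory signals, largely by new transcription, and Selp is stored in granules of endothelial cells and platelets and is also induced transcriptionally in mice. Icam1 binds the integrins LFA-1 (Itgal with Itgb2) and Mac-1 (Itgam with Itgb2), Vcam1 binds VLA-4 (Itga4 with Itgb1), and Icam2 is a constitutive endothelial ligand of LFA-1. In liver much of the leukocyte arrest takes place in sinusoids, where Icam1 and Vcam1 are known to be used.

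Values are RMA intensities, a linear scale after background correction and normalisation between arrays. Array medians were between 60.4 and 63.1. A row of random probes gave each array's background, 31.3 to 34.7, and 17.5 to 22% of targets were at or below it. Hepatocyte markers were at a median log2 intensity of 15.2 to 15.4 across the arrays, which carry the label liver. Some libraries stood apart. The summed intensity of 11 intestinal markers was 33551 and 34634 on LPS replicates 1 and 2, against 2361 on LPS replicate 3 and 1860 to 2138 with GalN. The sum of 7 thymus markers was 4141 and 3156 on LPS/GalN replicates 2 and 3, against 283 to 404 on the other arrays, and that of 15 lymphocyte markers was 12032 and 7574 against 860 to 1210. Between groups 0 of the 11 intestinal, 0 of the 7 thymus and 0 of the 15 lymphocyte markers passed limma's threshold. At an unadjusted p under 0.05, 7 intestinal markers were lower, 5 thymus markers were higher, and 5 lymphocyte markers were higher and 1 lower. The part of these tissues in the differences below was not tested. Values without those arrays are given for the genes named below as adhesion molecules, for Selplg and for the other genes of leukocyte adhesion that passed the threshold.

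Across all target rows, limma's test of LPS/GalN against LPS, with Benjamini-Hochberg adjustment over all of them and a threshold of 0.05, called 1671 rows (3.78%), of which 1382 were lower (3.13%) and 289 higher (0.654%). The groups did not overlap, in either direction, in 24% of rows, and in 11.1% LPS/GalN was wholly below LPS. Against this background 3 of the 9 adhesion rows fell, 0 rose and 6 did not pass. No row rose at an unadjusted p under 0.05 either, and 5 of the 9 had an unadjusted p under 0.05, all lower, beside 9.13% of all rows lower at that p. The groups did not overlap in 5 of the 9 rows (55.6%), each of them lower with GalN. In both counts of 5, 2 are Vcam1 rows over nearly the same stretch, with similar values, so the rows are not separate. By leading row, 4 of the 5 genes were lower at an unadjusted p under 0.05. The median log2 difference of the 9 rows was -1.28, beside 0.05 for all rows. Since p is taken from 3 mice against 3, an exact permutation test of a single gene cannot give a p below 0.1, and differences rest on the fit across all rows.

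**Figure D1:**
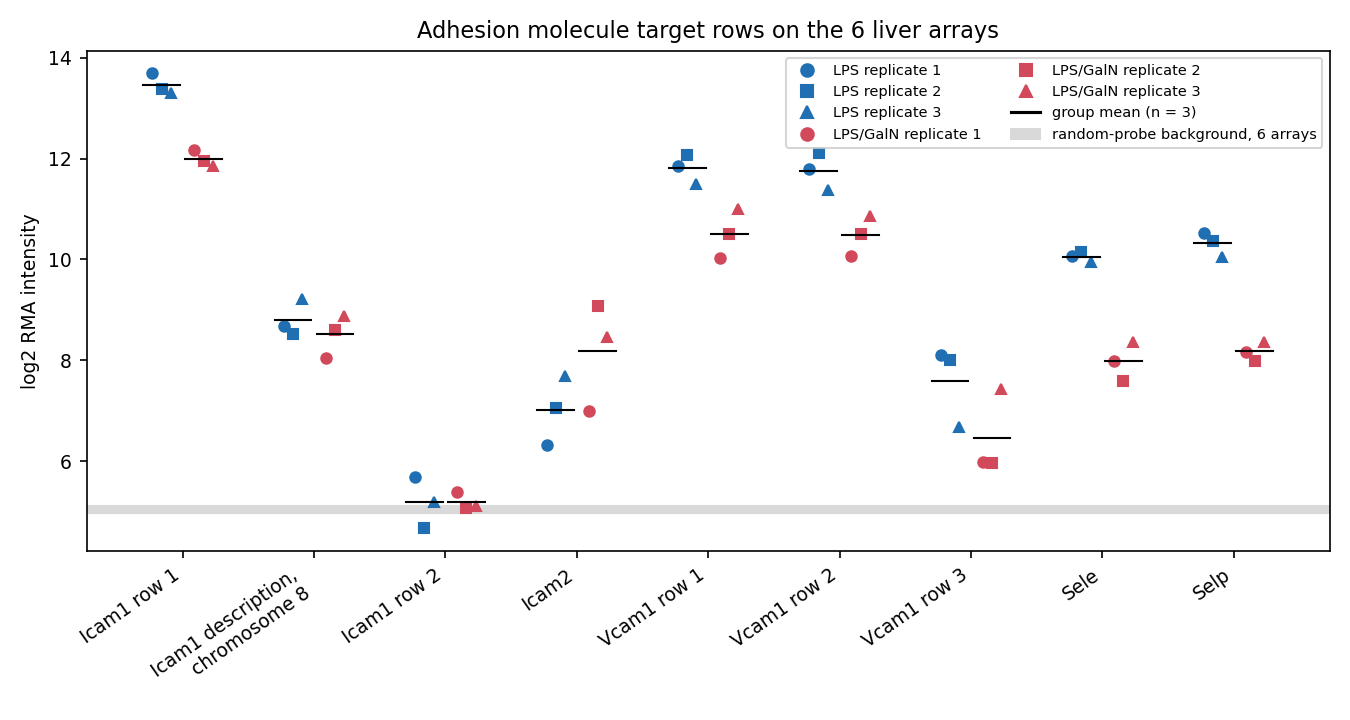
Log2 RMA intensity (vertical axis) of the 9 adhesion molecule rows on each of the 6 arrays; symbols mark replicates, colours the groups, lines the group means (n = 3) and the grey band the random-probe background. Sele, Selp, Icam1 row 1 and Vcam1 rows 1 and 2 lie lower in every LPS/GalN mouse than in every LPS mouse, and Icam1 row 2 lies at the background.

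Selp, the selectin held in endothelial and platelet granules, had the largest mean fall, close to that of Sele. Its intensities were 1481, 1326 and 1061 in the LPS mice and 289, 255 and 332 in the LPS/GalN mice. Every LPS/GalN mouse was below every LPS mouse. The log2 means were 10.32 ± 0.25 (SD, n = 3) and 8.18 ± 0.19, a difference of -2.14 ± 0.24 (SE; limma adjusted p = 0.0024), or 4.4-fold lower with GalN. The call held without any 1 array in turn, with a difference between -2.27 and -2.03.

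Sele, the selectin made by activated endothelium, was at 1069, 1135 and 996 with LPS alone. It was at 254, 194 and 328 with GalN. The LPS mice were close to one another and the LPS/GalN mice spread more, with no overlap. The log2 means were 10.06 ± 0.09 and 7.98 ± 0.38 (SD, n = 3 each). The difference of -2.07 ± 0.26 (SE; limma adjusted p = 0.0038) corresponds to 4.21-fold lower, and it passed without any 1 array (-2.26 to -1.88).

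Sele and Selp lie close together. In the mm9 coordinates of the files they span 100.8 kb of chromosome 1, with Sele at chr1:165978413-165986975 and Selp at chr1:166053832-166079199. Next to Selp, the coagulation factor V gene F5 differed by 0.14 ± 0.22 (limma adjusted p = 0.796). An unclassified transcript overlapping the end of Selp differed by -0.61 ± 0.30 (limma adjusted p = 0.346). Of the other rows examined within this span and the 100000 bases to either side, none passed limma's threshold. Among them, 2 rows of the thiamine transporter gene Slc19a2, named after their values were seen, were higher with GalN. They differed by 1.30 and 1.13 (limma adjusted p = 0.184 and 0.0576).

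Icam1, the ligand of LFA-1 and Mac-1, was measured by a leading row at chr9:20820448-20833258 (mm9). Intensities were 13199.6, 10663 and 10052 with LPS and 4589, 3947 and 3701 with GalN. All LPS/GalN mice were below all LPS mice, although even these reduced levels stayed far above background. The log2 means were 13.45 ± 0.21 and 11.99 ± 0.16 (SD, n = 3 each), a difference of -1.47 ± 0.23 (SE; limma adjusted p = 0.0101), or 2.76-fold lower. The difference without 1 array lay between -1.55 and -1.35, and the call was lost only without LPS replicate 1 (-1.35, adjusted p = 0.053).

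The second Icam1 row, for a shorter transcript at chr9:20820403-20825448, was near background. It gave 51.7, 25.5 and 36.7 with LPS and 41.7, 33.7 and 34.6 with GalN, and exceeded the random probes on 4 of 6 arrays. Its difference was 0.003 ± 0.30 (limma adjusted p = 0.998), at a level with little signal. Averaging this row with the leading one gave -0.73 for Icam1 (limma adjusted p = 0.15), which ended the call. The row of the same description at chr8:48619062-48633192 gave 411, 366 and 594 with LPS and 263, 391 and 473 with GalN. Its groups overlapped, with a difference of -0.29 ± 0.30 (limma adjusted p = 0.685).

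Vcam1, the ligand of VLA-4, was lower in the mean with GalN but narrowly missed the threshold. Its leading row, at chr3:115812866-115832348 (mm9), gave 3723, 4287 and 2901 with LPS and 1043, 1455 and 2057 with GalN. The groups did not overlap, and both varied more than those of Icam1. The log2 means were 11.81 ± 0.29 and 10.51 ± 0.49 (SD, n = 3 each), a difference of -1.30 ± 0.31 (95% interval -2.0 to -0.59; limma adjusted p = 0.0617), or 2.46-fold lower. Without 1 array it ran from -1.54 to -1.05 and passed in 0 of 6 cases. It passed under 3 other settings of the fit, with limma adjusted p of 0.00214 (trend and robust moderation), 0.0264 (the deposited value table) and 0.0363 (a pseudocount of 16).

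The other Vcam1 rows pointed the same way. One nearly covering the leading row, at chr3:115812937-115832606, gave 3532, 4418 and 2669 against 1071, 1456 and 1872. Its difference was -1.28 ± 0.30 (limma adjusted p = 0.0597). A shorter and dimmer row at chr3:115826351-115832606 gave 274, 256 and 103 against 62.9, 62.8 and 173. Its groups overlapped, with a difference of -1.13 ± 0.51 (limma adjusted p = 0.301). On the adjoining stretch of chromosome 3 the 2 rows of the gene that the files describe as exotoses (multiple)-like 2 fell by 1.91 and by 1.71 on the log2 scale (limma adjusted p = 0.0094 and 0.0344). They were named after their values were seen, as neighbours of Vcam1. No neighbouring row examined beside the other members passed, and the differences of those rows had both signs.

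Icam2, the constitutive endothelial ligand, was the one gene of the 5 with a higher mean in LPS/GalN, and did not pass. At chr11:106238969-106243887 (mm9) its intensities were 79.6, 133 and 208 with LPS and 128, 540.2 and 354 with GalN. LPS/GalN replicate 1 lay within the LPS range and the other 2 above it. The difference was 1.16 ± 0.55 (95% interval -0.12 to 2.44; limma adjusted p = 0.334). On leaving out the arrays with high lymphocyte and thymus markers, which leaves 1 LPS/GalN mouse, it was -0.027 (limma adjusted p = 0.991). Beside Icam1 on chromosome 9, the family members Icam4 and Icam5 differed by -0.54 (adjusted p = 0.516) and 0.13 (adjusted p = 0.882) by limma, and neither passed.

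**Figure D2:**
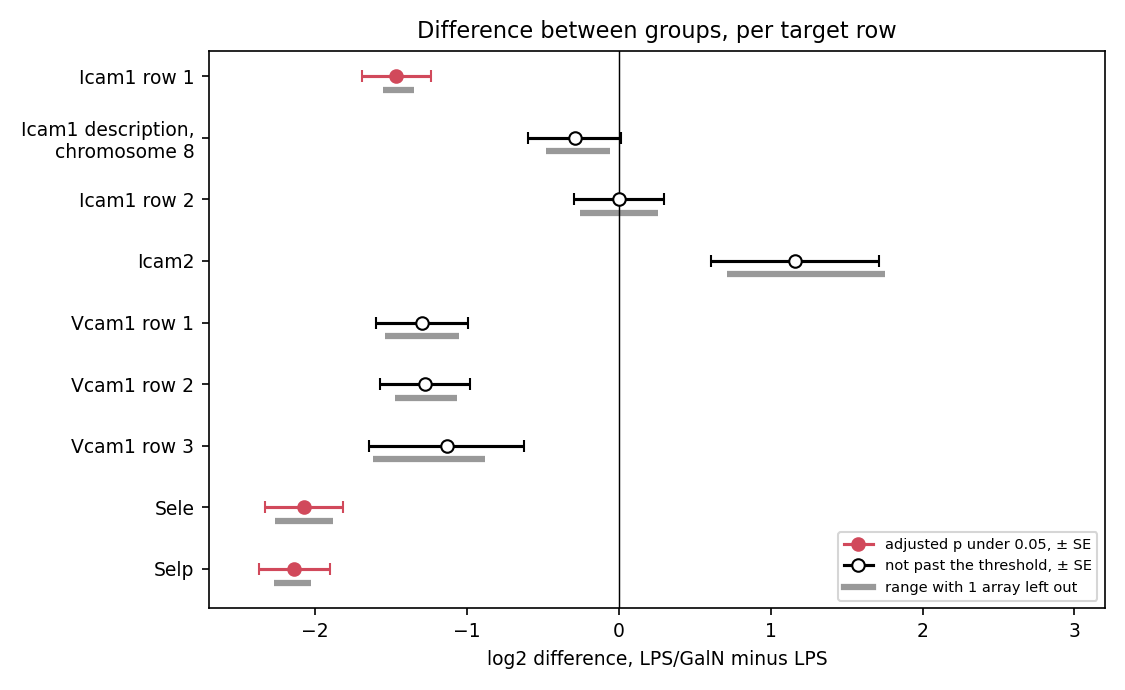
Log2 difference of LPS/GalN minus LPS (horizontal axis) for each adhesion molecule row, with its SE; filled red points passed the adjusted threshold of 0.05, and grey bars span the values with 1 array left out. Only Icam1 row 1, Sele and Selp passed, and the 3 Vcam1 rows lie between -1.30 and -1.13.

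The arrays that stood apart bear on how firmly these calls hold. Without LPS replicates 1 and 2, the libraries with intestinal markers, 1 LPS mouse remained and was assumed to vary like the others. Selp then differed by -1.87, Sele by -1.98, Icam1 by -1.31 and Vcam1 by -0.99, with limma adjusted p from 0.164 to 0.605, and 0 of all 44170 rows passed, beside 2817 lower and 1223 higher at an unadjusted p under 0.05. Without LPS/GalN replicates 2 and 3, 1 LPS/GalN mouse remained, so the LPS mice alone gave the spread, and the differences were -2.14 for Selp, -2.07 for Sele, -1.29 for Icam1 and -1.78 for Vcam1. Selp and Sele were then at limma adjusted p of 0.0698 and 0.0584, and Icam1 at 0.197. The sizes moved little for the selectins, whereas that of Vcam1 was -0.99 in the first setting and -1.78 in the second. The calls were lost in both settings. Having fewer mice and lacking the arrays with those markers cannot be told apart here.

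Because Sele, Selp, Icam1, Vcam1 and Icam2 are made in endothelium, endothelial markers were read beside them. Whole liver does not show which cells gave these transcripts. Of 20 measured endothelial markers, 4 rose (Pecam1, Tie1, Egfl7 and Oit3) and 0 fell by limma, beside 0.654% of all rows higher. Tie1, Egfl7 and Oit3 passed narrowly (limma adjusted p = 0.0475, 0.042 and 0.0493). Pecam1, Tie1 and Egfl7 each passed in 1 of 2 rows. At an unadjusted p under 0.05, 10 markers were higher and 0 lower, beside 3707 of all 44170 rows higher. In all, 17 had a positive difference, and Robo4, Erg and Cdh5 a negative one (-0.42, -0.07 and -0.03). The median difference of that list was 0.75. The summed intensity of the list was 9929, 9727 and 14446 in LPS replicates 1, 2 and 3, and 19329 to 23435 in LPS/GalN mice. The lower LPS sums lay on LPS replicates 1 and 2, the arrays with high intestinal markers. Sele, Selp and Icam1 were lower on the LPS/GalN arrays, where this sum was higher. The part of endothelial cells in their differences was not tested. A comparison with the median of those markers on the same array was chosen after the values were seen. In it the log2 differences were -3.07 for Selp, -3.01 for Sele, -2.40 for Icam1, -2.23 for Vcam1 and 0.23 for Icam2. On LPS replicate 3 alone, Selp, Sele, Icam1 and Vcam1 stood at 1.32, 1.22, 4.56 and 2.77 against that median. The LPS means were 2.09, 1.83, 5.23 and 3.58, and the LPS/GalN means -0.98, -1.18, 2.83 and 1.35. The part of the intestinal tissue in this comparison was not tested.

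Platelets also carry Selp. Of 8 platelet markers 0 passed by limma, 1 being lower at an unadjusted p under 0.05, and their sum was 667 to 939 with LPS and 566 to 975.2 with GalN. Neutrophils are among the cells that these molecules capture. Of 13 neutrophil markers S100a8 and S100a9 fell by 1.66 and by 1.55 on the log2 scale (limma adjusted p = 0.0127 and 0.0136). The other 11 did not pass, and 3 of the 13 were lower and 0 higher at an unadjusted p under 0.05. The list's sum was 4536 to 7177 with LPS and 2466 to 4104 with GalN. It includes S100a9, at 1607 to 2302 with LPS and 588 to 843 with GalN, and S100a8. Mmp8 had the largest mean fall of the list, -1.75 (limma adjusted p = 0.0566). Of the 13 differences 2 were positive, and their median was -0.44. The groups did not overlap for S100a8, S100a9 and Mmp8. They overlapped for the rest of the list, Csf3r, Cxcr2, Fpr1 and Fpr2 among them. The Kupffer cell markers, all 13 with a positive difference and a median of 0.83, did not pass by limma, and 10 of them were higher at an unadjusted p under 0.05. The part of these cells in the adhesion molecule differences was not tested.

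**Figure D3:**
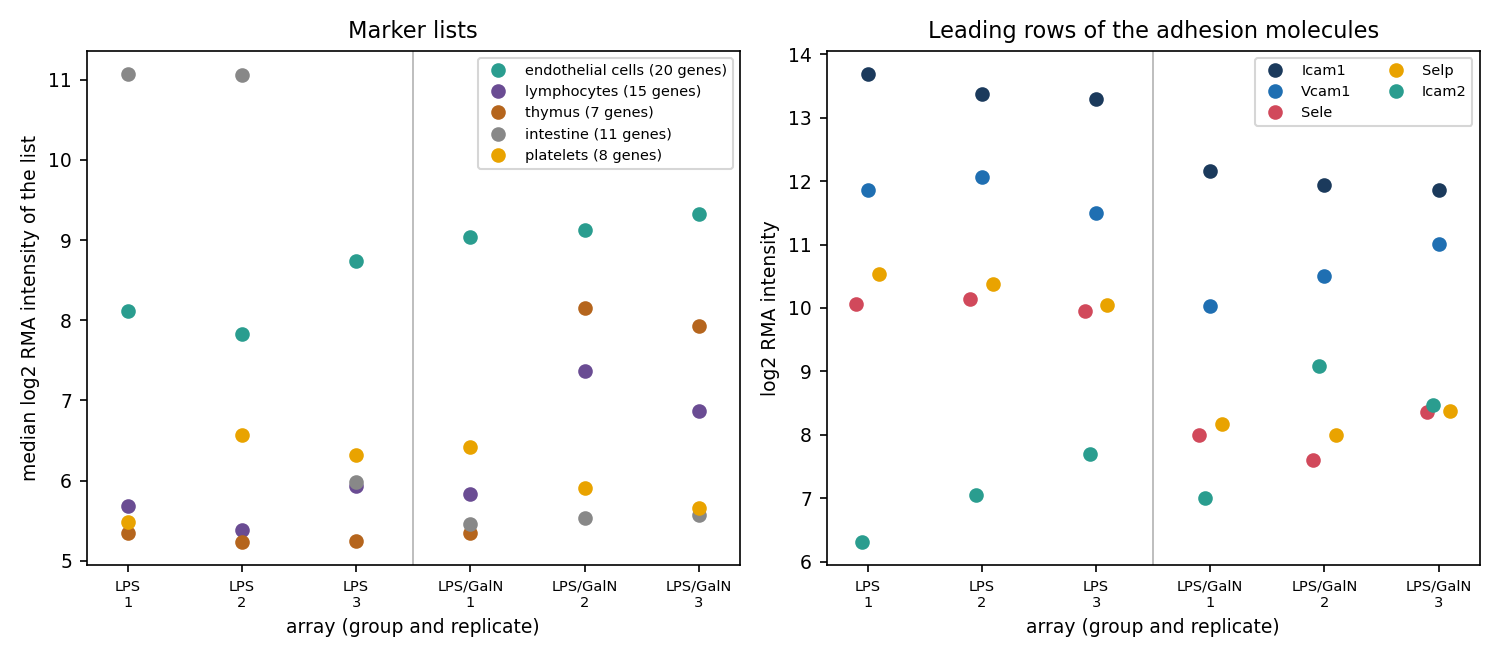
Left, median log2 RMA intensity of 5 marker lists on each array; right, log2 RMA intensity of the leading row of the 5 adhesion molecules on the same arrays, with a vertical line between the groups. The median of the endothelial list is higher on the LPS/GalN arrays, Sele, Selp, Icam1 and Vcam1 are lower there, and intestinal markers are high on LPS replicates 1 and 2 only.

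Whether the members moved by unequal amounts was tested within mice. For 10 pairs, the difference of log2 values was compared between groups by an exact two-sided permutation test, in which the smallest p is 0.1 and 0.143 after adjustment over the pairs, so no pair could pass this test. The ratio of Icam1 to Selp was higher with GalN by 0.67 ± 0.18 on the log2 scale, and that of Vcam1 to Selp by 0.84 ± 0.26 (SE; exact permutation p = 0.1 for each). Against Sele, Icam1 was higher by 0.61 ± 0.29 (exact permutation p = 0.2) and Vcam1 by 0.78 ± 0.28 (exact permutation p = 0.1). The ratio of Sele to Selp differed by 0.06 ± 0.16 (exact permutation p = 0.7) and that of Icam1 to Vcam1 by -0.17 ± 0.41 (exact permutation p = 0.7). In the pairs with Icam2, its ratio to Vcam1, Sele and Selp was higher with GalN by 2.45, 3.23 and 3.30. That of Icam1 to Icam2 changed by -2.62 (exact permutation p = 0.1 for each of these pairs). Levels of different genes are not compared, since probes differ in brightness.

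The promoters of Sele, Selp and Icam1 are shown, as the genes that fell and as those with an entry in the RefSeq table used. They are given in build GRCm38.p6, a later build than the mm9 of the array files, as the 250 bases before each start on the plus strand. Entries were matched for these 3 of the 5 genes. Capitals mark matches, on either strand, to a broad form of the NF-kB site (GGGA, any 4 bases, CC), GGANNTTCC (a narrower form that can overlap it), TTCNNNGAA (the core of a Stat site) and TATAAA (the TATA box). They lie at chr1:164047984-164048233, chr1:164115014-164115263 and chr9:21015690-21015939.
Sele: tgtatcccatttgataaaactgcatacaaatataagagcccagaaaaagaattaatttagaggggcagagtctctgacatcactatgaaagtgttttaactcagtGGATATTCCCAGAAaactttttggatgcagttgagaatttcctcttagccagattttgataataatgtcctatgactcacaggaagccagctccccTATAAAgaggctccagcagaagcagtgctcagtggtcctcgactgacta
Selp: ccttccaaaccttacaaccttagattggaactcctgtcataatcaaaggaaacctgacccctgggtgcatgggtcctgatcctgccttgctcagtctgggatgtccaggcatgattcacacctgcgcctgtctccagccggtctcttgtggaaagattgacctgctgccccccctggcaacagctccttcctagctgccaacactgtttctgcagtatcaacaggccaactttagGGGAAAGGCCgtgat
Icam1: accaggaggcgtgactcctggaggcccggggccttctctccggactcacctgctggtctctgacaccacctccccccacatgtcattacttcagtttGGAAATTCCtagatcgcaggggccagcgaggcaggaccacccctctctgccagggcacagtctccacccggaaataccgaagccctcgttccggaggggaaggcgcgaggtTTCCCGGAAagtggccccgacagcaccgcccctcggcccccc

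In Sele the NF-kB forms and the Stat form overlapped, covering 145 to 132 bases before the start, and a TATA box lay at 49 to 44. Selp held the broad NF-kB form at 15 to 6 bases before the start. Icam1 held GGANNTTCC at 153 to 145 and the Stat form at 42 to 34. Such letters are common: among 32851 RefSeq windows of the same length, the broad NF-kB form was in 17.6%, GGANNTTCC in 3.59%, TTCNNNGAA in 7.02% and TATAAA in 12.4%. These matches describe letters in the sequence and not measured binding.

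The sugars and proteins that the selectins bind, and the enzymes that build them, were read from a list of 20 genes, of which 19 were measured. In all, 71 of 77 listed genes of leukocyte adhesion were measured, 3 rose and 4 fell, with a median log2 difference of 0.13. Among the selectin ligand genes 2 fell and 0 rose by limma (median 0.06), beside 3 lower and 3 higher at an unadjusted p under 0.05. B4galt1, a galactosyltransferase that extends the sugar chains, was at 1382, 1392 and 1756 with LPS and at 335, 102 and 134 with GalN. It fell by 3.17 ± 0.42 on the log2 scale (limma adjusted p = 0.00528), or 9.02-fold, and held without any 1 array. Tpst2, which sulphates tyrosines of the Selp ligand, fell by 1.13 ± 0.20 (limma adjusted p = 0.0202) in 1 of its 2 rows, a call kept only when LPS/GalN replicate 1 was the array left out (adjusted p = 0.0392 to 0.0851). Selplg, the main protein ligand of Selp, did not pass. Its intensities were 155, 140 and 184 with LPS and 249, 839 and 597 with GalN, a difference of 1.65 ± 0.43 (limma adjusted p = 0.0843). The higher values again lay on LPS/GalN replicates 2 and 3.

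None of the integrins that bind the Icam and Vcam proteins passed the test. Of 12 measured integrin and activator genes 1 rose and 0 fell, beside 4 higher and 0 lower at an unadjusted p under 0.05. The gene that rose was Rasgrp2, an exchange factor for Rap1 that switches integrins on. It was at 144, 127 and 240 with LPS and at 410, 1420 and 886 with GalN. The difference was 2.29 ± 0.46 (limma adjusted p = 0.0347), past in 2 of its 4 rows, and the call was kept in 2 of 6 cases with 1 array left out, namely LPS replicate 3 and LPS/GalN replicate 1 (limma adjusted p = 0.00686 to 0.131). The LFA-1 chains Itgal and Itgb2 differed by 1.12 (adjusted p = 0.113) and 0.88 (adjusted p = 0.212) by limma, and Itga4 of VLA-4 by 0.02 (adjusted p = 0.983). The leading row of Itga4 was near background and exceeded the random probes on 5 of 6 arrays. That of Itgam did so on 3 of 6, so both hold little signal. The groups did not overlap for Itgal and Itgb2, whose highest values lay on LPS/GalN replicates 2 and 3.

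Genes of the endothelial junction split. Pecam1, the CD31 protein through which leukocytes pass the junction, rose from 674, 711 and 944 to 2033, 1996 and 1991. Its difference was 1.39 ± 0.23 (limma adjusted p = 0.0134) in 1 of its 2 rows, and the call was lost in 3 of 6 cases with 1 array left out: LPS replicates 1 and 2, and replicate 2 of LPS/GalN (limma adjusted p = 0.0685, 0.066 and 0.0508). F11r, a junctional adhesion molecule also made by epithelia, fell from 5748, 4260 and 4846 to 2474, 1661 and 2007. That difference, -1.28 ± 0.25 (limma adjusted p = 0.0287), was kept only with LPS/GalN replicate 1 left out (0.0262 to 0.122). The remaining 12 of 14 junction genes did not pass, among them the VE-cadherin gene Cdh5 at -0.03. Mcam, the CD146 molecule, was the 1 of 8 other immunoglobulin adhesion genes to pass, rising by 1.16 ± 0.25 (limma adjusted p = 0.0444), and missed the threshold with any 1 array left out (adjusted p = 0.0632 to 0.135). The mucosal addressin Madcam1 was near background and differed by -0.05.

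Among 5 measured genes with a role in the shedding of adhesion molecules from the surface, 1 fell. At an unadjusted p under 0.05, 3 were lower and 0 higher. Rhbdf2 encodes iRhom2, which escorts the sheddase Adam17 to the cell surface. It was at 1938, 1983 and 1656 with LPS and at 415, 299 and 361 with GalN. It fell by 2.38 ± 0.23 on the log2 scale (limma adjusted p = 0.00139), or 5.22-fold, and held without any 1 array. Adam17 itself, which sheds Vcam1, differed by -0.54 (limma adjusted p = 0.256). Without LPS replicates 1 and 2 none of these 7 called genes or Selplg passed limma's threshold (adjusted p = 0.129 to 0.603), nor did they without LPS/GalN replicates 2 and 3 (0.056 to 0.48), with 1 mouse left in that group each time. B4galt1 then differed by -3.40 and -2.16, Rhbdf2 by -2.22 and -2.16, Pecam1 by 1.09 and 1.40, and Tpst2 by -1.15 and -1.09. F11r differed by -1.26 and -0.99, and Mcam by 1.55 and 1.15. Rasgrp2 differed by 1.74 and 1.32 and Selplg by 1.44 and 0.65, both smaller without LPS/GalN replicates 2 and 3 than with all arrays.

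None of the 9 cytoplasmic anchor genes and none of the 4 endothelial granule genes passed with limma (1 anchor gene was lower at an unadjusted p under 0.05), Vwf among the latter at 0.26.

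**Figure D4:**
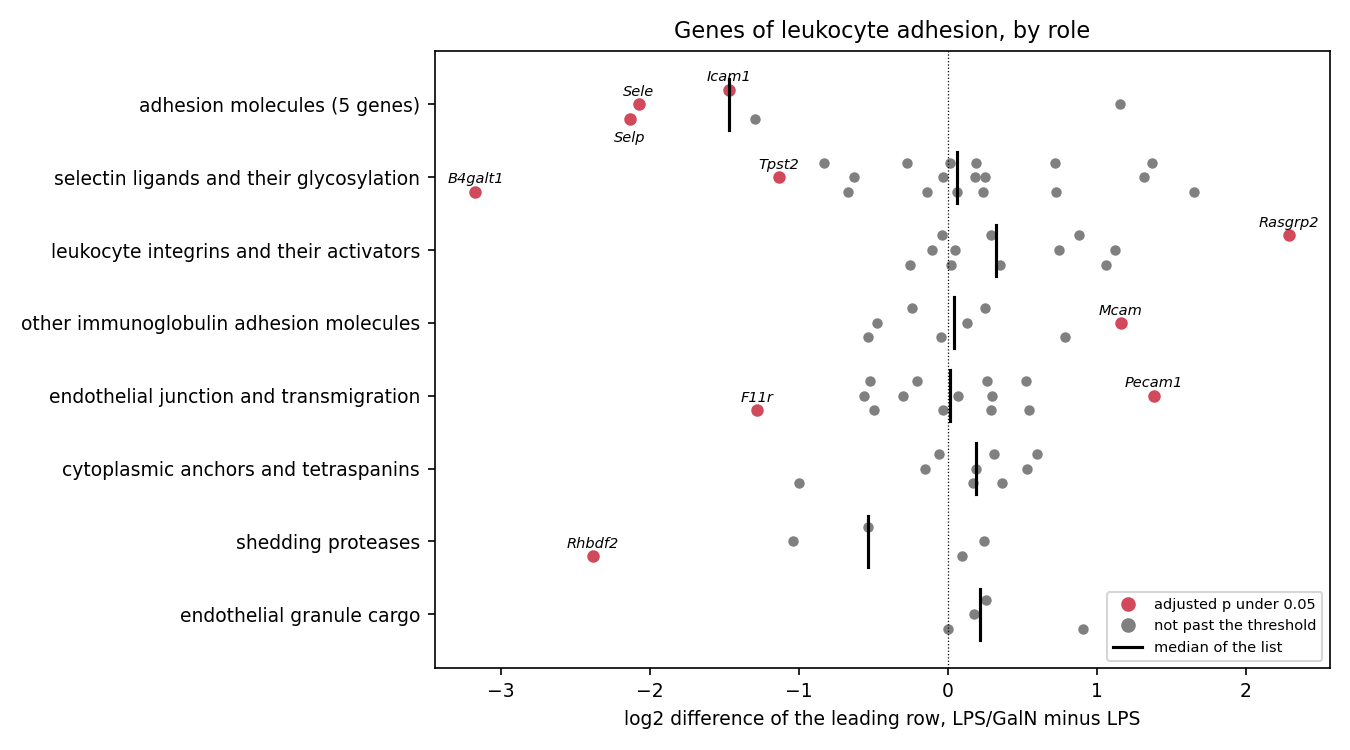
Log2 difference of LPS/GalN minus LPS (horizontal axis) for the leading row of the 5 adhesion molecules and of 71 further genes of leukocyte adhesion, grouped by role; red points passed the adjusted threshold and black bars are list medians. The medians of the other lists lie between -0.54 and 0.32, and that of the 5 adhesion molecules at -1.47.

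To name genes with a like pattern, each leading row that differed or nearly differed was correlated over the 6 arrays with rows of other genes. Those rows had a gene description, lay above the random-probe background on all 6 arrays and had an SD of at least 0.5. These r values follow mostly from the gap between groups and carry no p. Nearest to Icam1 were an uncharacterised expressed sequence (Pearson's r = 0.9965), a PX domain serine/threonine kinase (0.9963) and the beta inhibitor of NF-kB (0.9961). For Selp they were F-box protein 31 (0.9992), tripartite motif-containing 56 (0.9984) and proviral integration site 1, the kinase Pim1 (0.998). Sele was nearest to a transcript described as weakly prion-like (0.9996), a glycerol-3-phosphate transporter homolog (0.9994) and xanthine dehydrogenase (0.9991). An r above 0.95 was reached by 9.2% of 8204 rows for Icam1, 10.6% for Sele and 10.5% for Selp, but by 1.6% of 8202 rows for Vcam1, whose nearest named gene was antizyme inhibitor 1 (0.9899).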

How the data were processed

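Each mouse gave 1 liver RNA sample and 1 Cy3 array. For each array the authors deposited linear RMA intensity values, as the file headers show and the submitters' processing notes state. RMA corrects background, normalises arrays against one another and gives 1 value per target, from 3 probes for 44155 of the 44170 targets; the normalisation removes a change shared by all genes. The RMA version and options: not given in the sources used here. Groups were taken from the treatment in the labels. Rows were named by description, checked by accession and mm9 position, and 179 of 200 listed genes were matched; probe positions, and so exons or UTRs, were not examined.

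Intensities were converted to log2 and compared with limma 3.58.1 (lmFit and eBayes) in R 4.3.3 over all 44170 rows, two-sided, with group as the only term, 4.09 prior degrees of freedom and no filter. On simulated data for this comparison, over all rows, 200 of the 44170 rows were changed. Of changes of 1, 2 and 3 on the log2 scale, 4.55, 50.7 and 74.6% were recovered, with 4 false calls. Recovery depends on the share of changed rows, and 1671 rows were called in the data themselves. Genes were named by being members, by passing in a listed role, or by likeness in r; any other gene was picked with its values known, as stated beside it. An item that the selection rule also covers is not reported here and is left out of the member counts. The members and lists were chosen with earlier results of these data known. Alternatives were 19 other settings: moderation, scaling, filter, floor, pseudocount, row choice, a deposited value table of 18076 rows, the replicate block and arrays left out.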

Additional observations from a re-analysis of the deposited data

How the results depend on the processing

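Differences of Selp, Sele, Icam1 and Vcam1 were negative under all 19 alternatives, while calls changed with several of them. With trend and robust moderation, with the deposited value table of 18076 rows, and with a pseudocount of 16, member rows that fell numbered 5. Vcam1 then passed at -1.30, -1.30 and -1.29 (limma adjusted p = 0.00214, 0.0264 and 0.0363). The value table held 8 of the member rows. All rows that fell also grew, to 2001, 1660 and 1660, from 1382 of 44170 in the main fit. All rows that rose then numbered 1093, 758 and 472, and pathway genes that rose 5 and 6 under the first 2 of these settings. Averaging the rows of a description joined Icam1 with its dim row, giving -0.73 (limma adjusted p = 0.15). Centring on the endothelial marker median, chosen after seeing the data, moved Icam1 to -2.40, Icam2 to 0.23, Vcam1 to -2.23, Sele to -3.01 and Selp to -3.07; its shift is shared by all rows, so no p is given.

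With 1 array left out, Icam1 ranged from -1.55 to -1.35. Member rows that fell ranged from 2 to 3, all rows that fell from 831 (without LPS replicate 1) to 1358, and all that rose from 53 (without LPS replicate 1) to 804 (without LPS/GalN replicate 1). Pathway genes ranged from 2 to 4 falling and 0 to 7 rising. Without LPS replicates 1 and 2 together, limma called 0 member, 0 pathway and 0 other rows in either direction, with 3 member rows and 6 pathway genes lower and 6 higher at an unadjusted p under 0.05; Icam1 was -1.31, Sele -1.98 and Selp -1.87. Without LPS/GalN replicates 2 and 3 together, limma called 0 member rows (6 lower at an unadjusted p under 0.05) and 0 pathway genes (8 lower and 5 higher), 350 rows lower and 26 higher; Icam1 was -1.29, Icam2 -0.027, Sele -2.07 and Selp -2.14. These 2 settings have fewer samples and also lack the arrays with high intestinal, or high thymus and lymphocyte, markers. The cause of these and the other changes was not tested.

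Replicate numbers did not pair the mice: the correlation of same-numbered deviations was 0.0019, -0.0043 and 0.0195. With the replicate block, 144 rows rose, 2 pathway genes fell and 0 rose (11 at an unadjusted p under 0.05), and the 3 member calls were kept. The number of arrays limits precision, and rows near the random-probe background, such as the second Icam1 row, hold little signal.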
